A study of Mus musculus with 13 samples.

Results

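Notch signalling in the livers of mice with bile duct ligation (BDL), an operation that ties off the common bile duct and leads to cholestasis, was followed through 10 genes. They were chosen as members of the pathway and not by a measured value, but with earlier results of these data known. They are the ligands Jag1, Jag2 and Dll4, the receptors Notch1, Notch2 and Notch3, the DNA-binding factor Rbpj, and the target genes Hes1, Hey1 and Heyl. All 10 were found among the 22246 genes whose counts could be joined over all 13 mice.

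Notch receptors are single-pass membrane proteins that are switched on by a ligand on a neighbouring cell. Ligand binding lets ADAM metalloproteases and then the γ-secretase complex cut the receptor, and the freed intracellular part enters the nucleus and joins RBPJ on DNA to turn on genes such as Hes1, Hey1 and Heyl. In the liver, Jag1 and Notch2 are needed for the formation of bile ducts, Dll4 and Notch1 are known from endothelial cells, and Notch3 and Heyl from mural cells and stellate cells.

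RNA-seq was carried out on whole liver of 13 C57 mice aged 3 months, which the study's methods describe as male and wild type for Gnmt. The 5 mice without BDL are labelled as non treated. The 4 miR-Ctrl BDL mice had BDL and received a control oligonucleotide, and the 4 anti-miR-873-5p BDL mice, called anti-miR BDL from here on, had BDL and received a hairpin inhibitor of the microRNA miR-873-5p. By the study's methods the oligonucleotides went into the tail vein with a lipid reagent, 60 µg per injection, on days 3 and 5 after surgery, and the livers were taken on day 7. The sources used here describe neither sham surgery nor an injection in the mice without BDL, so that surgery, cholestasis and oligonucleotide delivery cannot be told apart in a comparison with them. The labels do not say whether the mice shared litters or operation days, and p-values measure the spread between these mice.

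The authors deposited 1 count table per comparison, with totals of 12185333 to 19689037 counts per mouse. The 2 comparisons with the mice without BDL share the same 5 animals. The table of the BDL groups holds 3 mice of each group. It leaves out miR-Ctrl BDL mouse 3 and anti-miR BDL mouse 2, and by the study's methods outliers were filtered by clustering and principal components. Within its group, miR-Ctrl BDL mouse 3 had the lowest level of 6 of the 10 Notch genes (Dll4, Notch1, Notch2, Hes1, Hey1 and Heyl) and the highest of 1 (Notch3), and anti-miR BDL mouse 2 had the lowest level of 8 (all but Jag2 and Notch3) and the highest of 1 (Jag2). Results of the comparisons with no BDL are given with these 2 mice. The calls of the Notch genes and the fold changes of some of them are therefore also given without these 2 mice. Levels are normalized counts, that is CPM values after TMM scaling over the 13 mice, and a gene was called at an adjusted p under 0.05 over all genes tested.

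As the treatment was aimed at miR-873-5p, its mature sequence is shown first, with the stretches of the Notch transcripts that match its seed (bases 2 to 8). The mature mouse form mmu-miR-873a-5p lies on the minus strand at chr4:36668556-36668576 (GRCm38, the assembly also called mm10, RefSeq) and has 21 bases. A match to the seed, GTTCCTG on the transcript strand, was found in the annotated 3′ UTR of 2 of the 10 genes, Jag1 and Notch2. In the transcripts below the match is in capitals, and in the microRNA the seed is.
mmu-miR-873a-5p: gCAGGAACuugugagucuccu
Jag1 3′ UTR: gatgtgttGTTCCTGgcaataaa
Notch2 3′ UTR: gacttcgtGTTCCTGactaaata
The Jag1 match lies at chr2:137081507-137081513 on the minus strand and the Notch2 match at chr3:98150233-98150239 on the plus strand. The same letters occur in the annotated 3′ UTR of 17.3% of 21082 genes. The median annotated 3′ UTR is 1448.5 bases long for the 10 Notch genes and 1088 bases for all genes. A letter match is a description and not evidence that the microRNA binds there.

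The binding motif of RBPJ was looked for in RefSeq promoter windows, which reach from before each transcription start to just after it and were matched for 7 of the 10 genes. No window was found for the target genes Hes1, Hey1 and Heyl, so that the motif was not looked for in their promoters. The core TGGGAA, on either strand, occurred in 2 of the 8 windows, both of Rbpj, the gene of the factor itself, against 25.6% of 32851 windows of the same length. The longer form GTGGGAA, which contains the core, was in 0 of the 8 windows and in 6.38% of all windows. The first Rbpj window is shown because it holds 2 core matches (capitals), on the plus strand of chr5:53590096-53590395 of GRCm38, and the second of these lies in the other Rbpj window too.
Rbpj promoter: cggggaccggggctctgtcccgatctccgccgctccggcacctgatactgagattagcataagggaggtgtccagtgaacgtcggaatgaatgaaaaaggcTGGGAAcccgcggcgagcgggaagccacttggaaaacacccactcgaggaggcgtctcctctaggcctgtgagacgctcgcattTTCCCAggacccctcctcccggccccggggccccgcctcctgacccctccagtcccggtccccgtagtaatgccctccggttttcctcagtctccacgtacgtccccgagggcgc

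The 10 genes covered a wide range of levels. Compared per length of exon, Hes1 was highest in every group, with 6.71 ± 2.73 normalized counts per kb (SD, n = 5) without BDL, 7.13 ± 2.07 (SD, n = 4) in miR-Ctrl BDL and 8.26 ± 2.16 (SD, n = 4) in anti-miR BDL. Notch2 followed with 2.53 ± 0.343, 3.72 ± 0.685 and 3.71 ± 0.763 normalized counts per kb. In each group the lowest Hes1 mouse lay above the highest Notch2 mouse, and the lowest Notch2 mouse above the highest mouse of any other member. Rbpj, Notch1, Jag1 and Dll4 came next without BDL, with means from 1.24 down to 0.809 normalized counts per kb, and their ranges over mice overlapped. Heyl followed with 0.530 normalized counts per kb, overlapping Jag1. Notch3 with 0.231 and Hey1 with 0.115 lay apart from their neighbours in the order without BDL. Jag2 was last in all 3 groups, with means of 0.0365, 0.0377 and 0.0582 normalized counts per kb. The order changed in the middle of the range: Dll4 held the fifth place without BDL and the seventh in both BDL groups, and Jag1 held the sixth place without BDL, the fifth in miR-Ctrl BDL and the fourth in anti-miR BDL, with overlapping ranges between these neighbours.

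**Figure D1:**
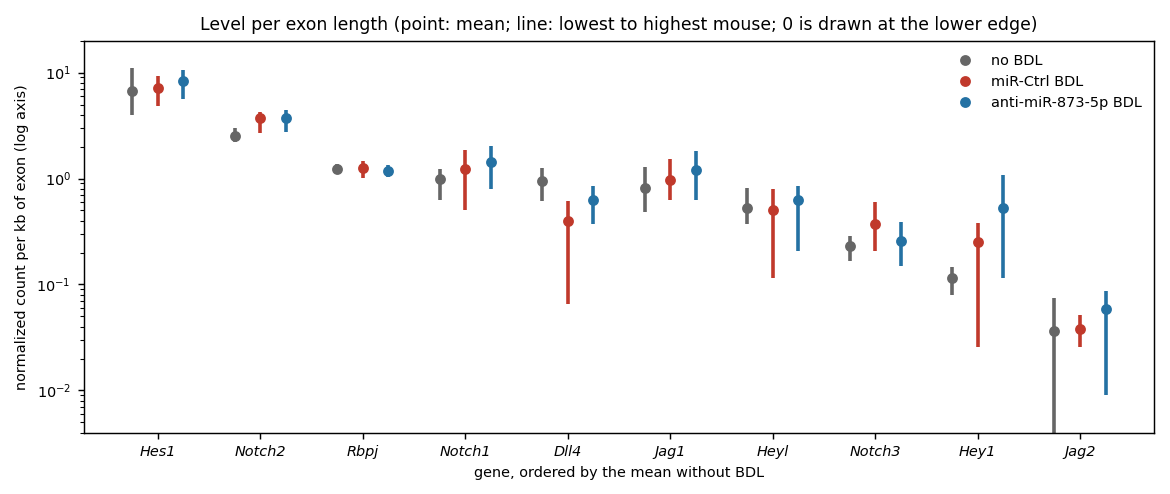
Normalized counts per kb of exon (log axis) of the 10 Notch genes, ordered by their mean without BDL; points are group means and lines run from the lowest to the highest mouse (n = 5 without BDL, n = 4 in each BDL group), with 0 drawn at the lower edge. Hes1 and Notch2 stand above the other genes in every group, and Jag2 is last in every group.

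**Figure D2:**
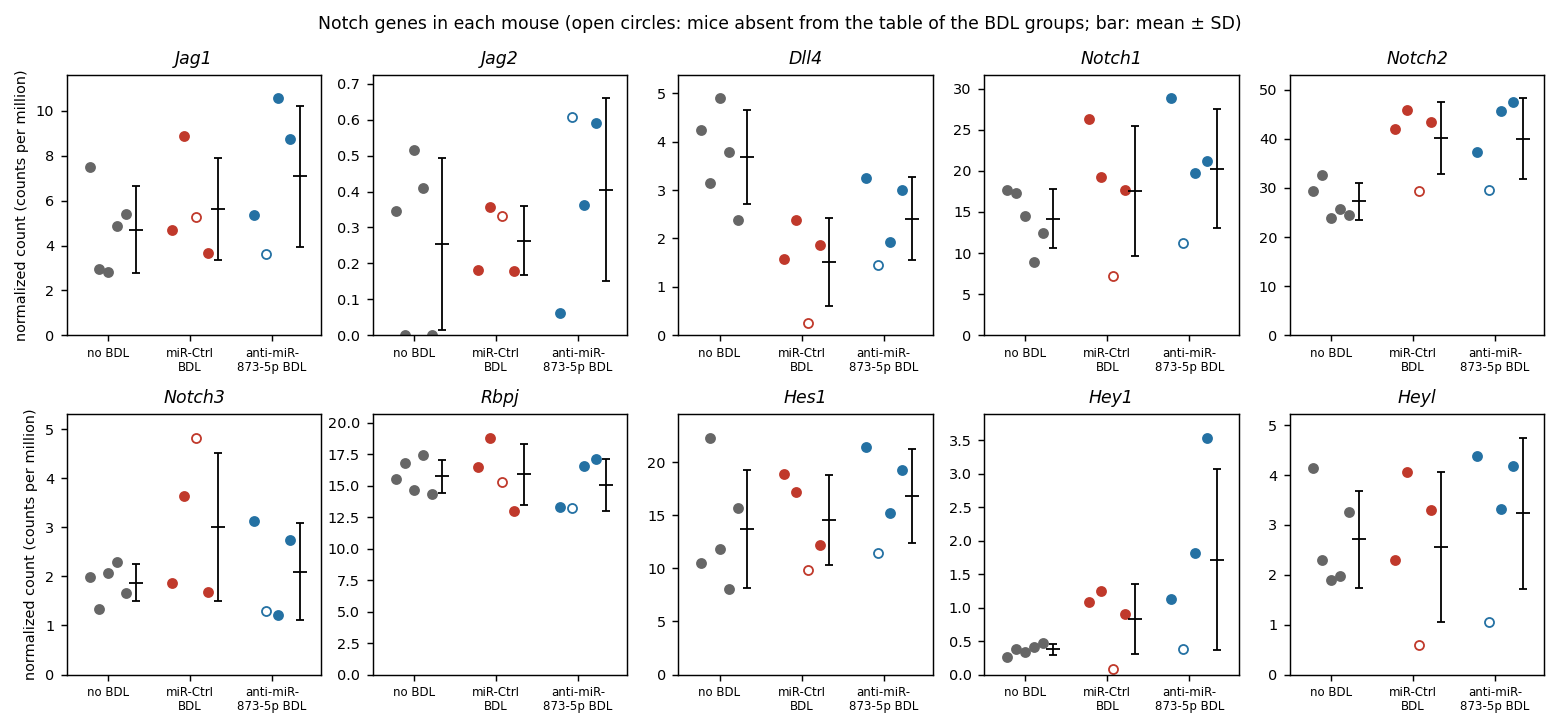
Normalized counts (CPM, linear axes from 0) of the 10 Notch genes in each of the 13 mice, with the mean ± SD of each group beside the points; open circles are miR-Ctrl BDL mouse 3 and anti-miR BDL mouse 2. The Notch2 points of the BDL groups lie above most of the points without BDL, the Dll4 points of miR-Ctrl BDL lie below all of those without BDL, and the open circles are the lowest of their group for Dll4, Notch1, Notch2, Hes1, Hey1 and Heyl.

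The first comparison set miR-Ctrl BDL against no BDL, that is, the liver of ligated mice that received the control oligonucleotide against the untreated liver. Notch2, the receptor tied to bile duct formation, rose 1.50-fold, and it was the only one of the 8 Notch genes tested that was called. Among all 13072 genes tested, 19.1% were called higher and 16.6% lower, so that 1 of 8 was below the share over all genes. The median log2 fold change of the 8 genes was 0.20, against -0.01 over all genes.

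The second comparison set anti-miR BDL against no BDL. Notch2 rose here too, 1.50-fold, and was again the only one called of the 8 tested, where 13.1% of 13130 genes were called higher and 8.44% lower. The median log2 fold change of the 8 genes was 0.31, against -0.01 over all genes. Without the mice left out by the authors, 3 of 9 Notch genes were called against no BDL in each BDL group. In miR-Ctrl BDL these were Notch2 and Hey1, higher, and Dll4, lower, where 22.2% of 13509 genes were called higher and 20.1% lower. In anti-miR BDL they were Notch2, Notch1 and Hey1, all higher, where 18.4% of 13597 genes were called higher. Hey1 entered both of these fits only through its level in the BDL groups, where it is higher, so that its call and the counts of 3 that include it are given as a description.

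The third comparison, anti-miR BDL against miR-Ctrl BDL, addresses what the inhibitor changed in ligated livers. None of the 9 Notch genes tested was called by edgeR, and the count at an unadjusted p under 0.05 was 0 too. Over all 13746 genes edgeR called 0 as well (0%), with 863 at an unadjusted p under 0.05, and DESeq2 called 31. With 3 mice per group the intervals of the differences set what could be seen, and they are given gene by gene below. Every interval contained 0.

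**Figure D3:**
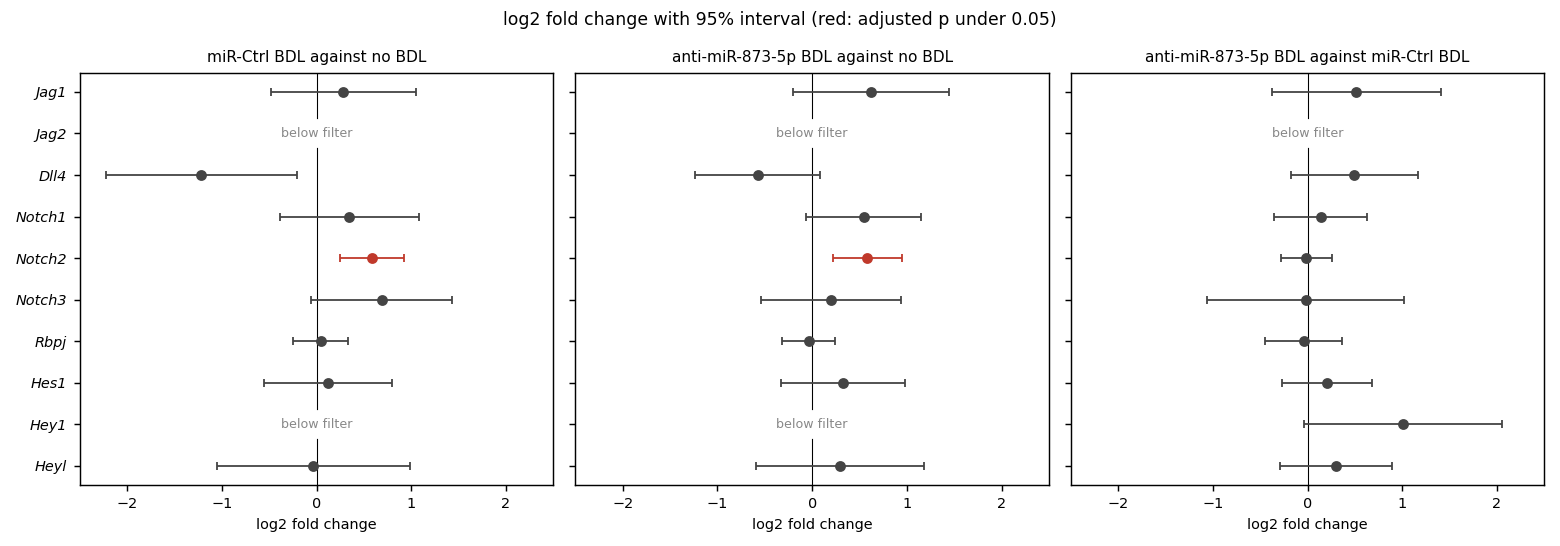
log2 fold changes of the Notch genes with 95% intervals (edgeR's quasi-likelihood test) in the 3 comparisons; the vertical line marks no change, red points have an adjusted p under 0.05, and "below filter" marks genes with too few counts to be tested. Notch2 is red in both comparisons with no BDL at about the same height, and every interval between the BDL groups contains 0.

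Among the ligands, Dll4, a Delta-type ligand of endothelial cells, was lower in miR-Ctrl BDL in every mouse. Without BDL the mice had 4.23, 3.15, 4.90, 3.78 and 2.39 normalized counts, and the miR-Ctrl BDL mice had 1.57, 2.38, 0.250 and 1.86. The groups did not overlap, but the highest miR-Ctrl BDL mouse and the lowest mouse without BDL were almost level. The log2 fold change was -1.22 (SE 0.45), with an adjusted p of 0.0595 in edgeR's quasi-likelihood test (Benjamini-Hochberg), just outside the threshold. Without miR-Ctrl BDL mouse 3, which had 3 counts of Dll4, the log2 fold change was -0.90 (SE 0.27) and edgeR's adjusted p 0.0226. In anti-miR BDL, Dll4 stood at 3.25, 1.44, 1.93 and 3.00 normalized counts, which overlapped the mice without BDL (log2 fold change -0.58, SE 0.30, edgeR adjusted p = 0.192). Between the BDL groups the log2 difference in Dll4 was 0.49 (95% interval -0.18 to 1.16, edgeR adjusted p = 0.811). About 4.33% of the 50-base windows of Dll4 exons also occur in the gene model Gm14207 on the opposite strand, and the library kit did not mark strand.

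Jag1, the ligand tied to bile duct formation, varied more within groups than between them. The mice without BDL had 7.52, 2.96, 2.83, 4.85 and 5.41 normalized counts, the miR-Ctrl BDL mice 4.70, 8.88, 5.25 and 3.66, and the anti-miR BDL mice 5.38, 3.64, 10.6 and 8.75. The groups overlapped throughout, and the 3 highest values were those of anti-miR BDL mouse 3, miR-Ctrl BDL mouse 2 and anti-miR BDL mouse 4. The log2 fold change against no BDL was 0.28 (SE 0.34) in miR-Ctrl BDL and 0.62 (SE 0.37) in anti-miR BDL, with edgeR adjusted p of 0.557 and 0.256. Jag1 carries a match to the miR-873-5p seed, shown above. Its log2 difference between the BDL groups was 0.51, with a 95% interval from -0.38 to 1.40 (edgeR adjusted p = 0.836).

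Jag2, the other Jagged ligand, was close to the limit of detection. Its counts ran from 0 to 6 per mouse without BDL, from 3 to 6 in miR-Ctrl BDL and from 1 to 12 in anti-miR BDL. The gene did not pass the filter on low counts in any comparison. With all genes of at least 1 count tested, the log2 fold changes were 0.04 (SE 0.78) and 0.66 (SE 0.82) against no BDL and 0.53 (SE 0.72) between the BDL groups, with edgeR adjusted p of 0.982, 0.611 and 0.911. In the same order, the mean normalized counts were 0.254 ± 0.240 (SD, n = 5), 0.263 ± 0.0958 (SD, n = 4) and 0.405 ± 0.254 (SD, n = 4). A difference was not detectable at this depth.

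Of the receptors, Notch2 had the most counts and the clearest change. Without BDL it stood at 29.4, 32.7, 23.96, 25.6 and 24.6 normalized counts. The miR-Ctrl BDL mice had 42.0, 45.9, 29.3 and 43.3, and the anti-miR BDL mice 37.4, 29.6, 45.6 and 47.5. In each BDL group only the mouse left out by the authors fell within the range of the mice without BDL. The log2 fold change was 0.59 (SE 0.15) in miR-Ctrl BDL, with an adjusted p of 0.0141 in edgeR's quasi-likelihood test, and 0.58 (SE 0.16) in anti-miR BDL, with an adjusted p of 0.0308. Without the mice left out by the authors both log2 fold changes were 0.70, with edgeR adjusted p of 0.0015 and 0.0054. The call in miR-Ctrl BDL held when each mouse was left out in turn (adjusted p up to 0.0455). The call in anti-miR BDL was lost without mouse 1, 3, 4 or 5 of the no BDL group or without anti-miR BDL mouse 3 or 4, with log2 fold changes of 0.49 to 0.70 over the 9 fits and edgeR adjusted p up to 0.0961. Notch2 also carries a match to the miR-873-5p seed. Its log2 difference between the BDL groups was -0.01, with a 95% interval from -0.28 to 0.25, the narrowest of the 9 genes.

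Notch1, the receptor known from endothelium, had 17.6, 17.4, 14.5, 8.96 and 12.5 normalized counts without BDL. It had 26.3, 19.2, 7.17 and 17.6 in miR-Ctrl BDL and 28.8, 11.2, 19.7 and 21.2 in anti-miR BDL. The mouse left out by the authors was the lowest of its group in both, and all other BDL mice stood above the highest mouse without BDL, in miR-Ctrl BDL by a small margin. With all mice the log2 fold changes were 0.35 (SE 0.33) and 0.55 (SE 0.27), with edgeR adjusted p of 0.448 and 0.178. Without those mice they were 0.59 (SE 0.22, edgeR adjusted p = 0.0555) and 0.74 (SE 0.22, edgeR adjusted p = 0.0308). Between the BDL groups the log2 difference in Notch1 was 0.14 (95% interval -0.35 to 0.63). A share of 9.11% of the 50-base windows of Notch1 exons also occurs in gene models on the opposite strand, 0610009E02Rik and Gm13568.

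Notch3, the receptor known from mural cells, was low, with 1.99, 1.33, 2.06, 2.30 and 1.67 normalized counts without BDL. The miR-Ctrl BDL mice had 1.87, 3.64, 4.83 and 1.68, and the anti-miR BDL mice 3.13, 1.29, 1.21 and 2.75. Here miR-Ctrl BDL mouse 3 was the highest of all 13 mice, in contrast to its low levels of the other receptors. The log2 fold change was 0.69 (SE 0.33, edgeR adjusted p = 0.135) in miR-Ctrl BDL, and 0.37 (SE 0.30, edgeR adjusted p = 0.351) without that mouse. In anti-miR BDL it was 0.20 (SE 0.33, edgeR adjusted p = 0.706). The interval between the BDL groups was wide, from -1.06 to 1.02 around a log2 difference of -0.02.

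Rbpj, through which all 3 receptors act on DNA, had the smallest SD relative to its mean of the 10 genes in each group. Its levels ran from 14.3 to 17.4 normalized counts without BDL, from 12.96 to 18.8 in miR-Ctrl BDL and from 13.2 to 17.2 in anti-miR BDL, and the 3 groups overlapped. In the same order, the mean normalized counts were 15.8 ± 1.33 (SD, n = 5), 15.9 ± 2.45 (SD, n = 4) and 15.1 ± 2.09 (SD, n = 4). The 95% intervals of the log2 fold change were -0.25 to 0.33 in miR-Ctrl BDL against no BDL, -0.31 to 0.24 in anti-miR BDL against no BDL and -0.45 to 0.36 between the BDL groups. A share of 10.6% of the 50-base windows of Rbpj exons also occurs elsewhere, among them in the pseudogene Rbpj-ps3, so that part of its count could belong to copies.

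Among the targets, Hey1, a transcriptional repressor of the hairy family, had the fewest counts after Jag2. Without BDL it stood at 0.259, 0.381, 0.344, 0.410 and 0.477 normalized counts, which were 3 to 6 counts per mouse. The miR-Ctrl BDL mice had 1.08, 1.25, 0.0833 and 0.900, and the anti-miR BDL mice 1.13, 0.379, 1.81 and 3.54. In both BDL groups the 3 mice kept by the authors stood above every mouse without BDL, and the mouse left out did not. With all mice, Hey1 did not pass the filter on low counts in either comparison with no BDL. With all genes of at least 1 count tested, the log2 fold change was 1.18 (SE 0.55, edgeR adjusted p = 0.139) in miR-Ctrl BDL and 2.21 (SE 0.56, edgeR adjusted p = 0.0227) in anti-miR BDL, where 10.6% of 18361 genes were called higher. Without the mice left out by the authors Hey1 passed the filter, but only through its level in the BDL groups, and the log2 fold changes of 1.52 (SE 0.29, edgeR adjusted p = 0.0032) and 2.53 (SE 0.41, edgeR adjusted p = 0.0030) are therefore a description.

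Between the BDL groups Hey1 had the largest log2 difference of the Notch genes, 1.01 (SE 0.44), with a 95% interval from -0.04 to 2.05, an unadjusted p of 0.0568 and an adjusted p of 0.781 in edgeR's quasi-likelihood test. The lowest anti-miR BDL mouse in this table, at 1.13 normalized counts, was below the highest miR-Ctrl BDL mouse, at 1.25. Without anti-miR BDL mouse 4 the log2 difference was 0.44. With all 4 mice of each BDL group it was 1.03 (SE 0.72, edgeR adjusted p = 0.980).

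Hes1, the most abundant target and a repressor of the same family, spread widely in the mice without BDL, at 10.5, 22.3, 11.9, 8.06 and 15.7 normalized counts. The miR-Ctrl BDL mice had 18.9, 17.2, 9.83 and 12.2, and the anti-miR BDL mice 21.4, 11.5, 15.2 and 19.2. All BDL values fell within the range of the mice without BDL. The log2 fold changes were 0.12 (SE 0.30) and 0.33 (SE 0.29), with edgeR adjusted p of 0.791 and 0.455, and the log2 difference between the BDL groups was 0.20 (95% interval -0.27 to 0.68). Heyl, the target known from mural cells, had 4.15, 2.29, 1.89, 1.97 and 3.26 normalized counts without BDL, 2.29, 4.05, 0.583 and 3.30 in miR-Ctrl BDL, and 4.38, 1.06, 3.32 and 4.18 in anti-miR BDL. The lowest values of all 13 mice were those of the 2 mice left out by the authors. The log2 fold change of Heyl was -0.04 (SE 0.46) in miR-Ctrl BDL and 0.30 (SE 0.40) in anti-miR BDL, and without those mice 0.27 (SE 0.30) and 0.57 (SE 0.27), with edgeR adjusted p of 0.508 and 0.143. Between the BDL groups its log2 difference was 0.30 (95% interval -0.29 to 0.89).

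In whole liver, fewer cells of a type and less RNA per cell cannot be told apart, and the Notch genes were therefore set beside the summed levels of marker lists. The 12 endothelial markers summed to 174 to 254 normalized counts without BDL, and the 2 mice left out by the authors were the lowest of all, at 65.7 in miR-Ctrl BDL and 103 in anti-miR BDL, against 147 to 247 and 161 to 253 in the other BDL mice. In miR-Ctrl BDL against no BDL, 0 of the 12 were called higher and 1 lower, and in anti-miR BDL 0 higher and 2 lower. Over all genes, 19.1% were called higher and 16.6% lower in miR-Ctrl BDL, and 13.1% higher and 8.44% lower in anti-miR BDL. The stellate and mural markers (10 of 12 in the joined table) summed to 163 to 258 without BDL, and in the BDL groups to 228 and 223 in the mice left out and to 445 to 751 and 596 to 920 in the others. Of the 12, 5 were called higher in each comparison with no BDL. The same 2 mice were thus lowest of their group for both lists and for Dll4, Notch1, Notch2, Hes1, Hey1 and Heyl. They were also lowest of their group for the leukocyte markers given below (177 and 145), so that this was not particular to these 2 lists. For cholangiocyte markers miR-Ctrl BDL mouse 3 was highest of its group (114) and anti-miR BDL mouse 2 lowest (61.1). For hepatocyte markers anti-miR BDL mouse 2 was highest of its group (88894). The part of these cell types in the Notch levels was not tested.

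The cholangiocyte markers (9 of 10 in the joined table) summed to 31.4 to 41.3 normalized counts without BDL, to 72.8 to 114 in miR-Ctrl BDL and to 61.1 to 148 in anti-miR BDL, so that the BDL groups did not overlap the mice without BDL. In each comparison with no BDL 8 of the 9 tested were called higher, 1 of them being Sox9, which is also a Notch target. Over all genes, 19.1% were called higher in miR-Ctrl BDL and 13.1% in anti-miR BDL. The 8 leukocyte markers summed to 72.2 to 329 without BDL, 177 to 569 in miR-Ctrl BDL and 145 to 561 in anti-miR BDL, and Ncr1 had at most 3 counts per mouse without BDL. The hepatocyte markers (7 of 8 in the joined table) summed to 99553 to 115539 without BDL, which marks these samples as liver, and to 48092 to 78046 and 41982 to 88894 in the BDL groups. None of the markers was called between the BDL groups, where edgeR called 0 of 13746 genes.

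**Figure D4:**
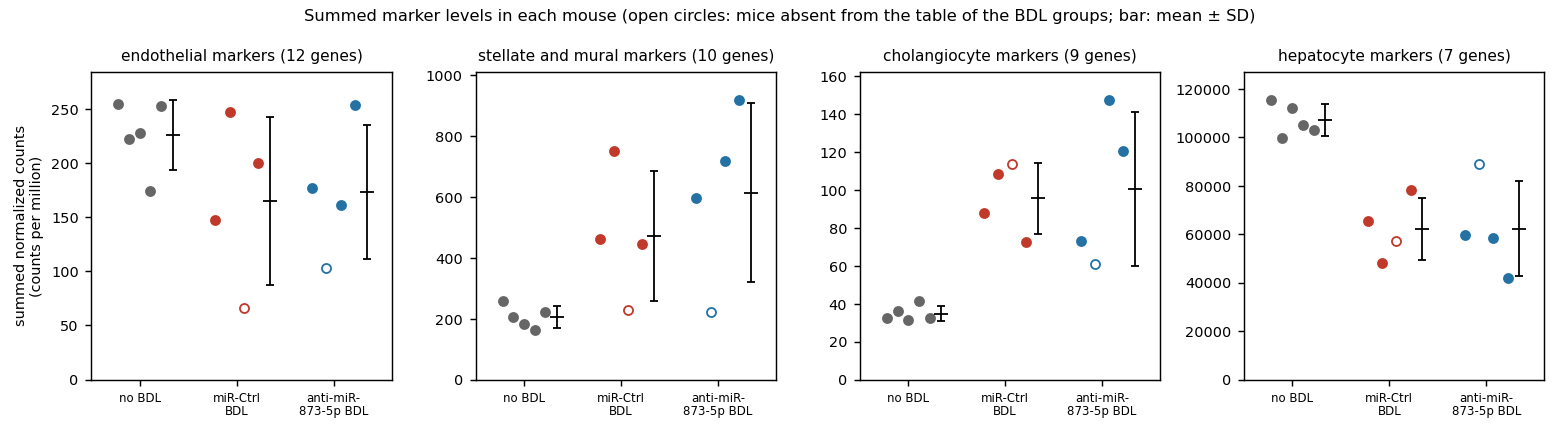
Summed normalized counts (CPM, axes from 0) of 4 marker lists in each mouse, with the mean ± SD of each group; open circles are miR-Ctrl BDL mouse 3 and anti-miR BDL mouse 2. The open circles are the lowest of their group for endothelial markers (65.7 and 103) and for stellate and mural markers (228 and 223), and the cholangiocyte markers of all BDL mice lie above those of the mice without BDL.

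The machinery around the 10 genes was covered by a list of 63 other Notch pathway genes, of which 57 were tested in each comparison. In miR-Ctrl BDL against no BDL 14 were called higher and 7 lower, and in anti-miR BDL against no BDL 11 higher and 3 lower. The genes called higher include Neurl1a, Neurl1b and Numbl in both comparisons and Dtx1 in anti-miR BDL. These passed the filter only through the BDL groups, so that the counts that include them are a description. Over all genes, 19.1% were higher and 16.6% lower in the first and 13.1% higher and 8.44% lower in the second. The median log2 fold change of the 57 was 0.18 and 0.09, against -0.01 over all genes in both. In anti-miR BDL against miR-Ctrl BDL 0 of the 57 were called by edgeR, and 1, Tle1, had an unadjusted p under 0.05. Dll3, Dlk1, Dlk2, Hes5, Hes7 and Hey2 had too few counts to be tested.

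E3 ubiquitin ligases act on ligands in the sending cell. Of 5 tested, 3 were called higher in both BDL groups, all of the neuralized family, and Mib1 and Mib2 were not called. Neurl1a went from 0.290 ± 0.140 normalized counts (SD, n = 5) to 5.26 ± 3.43 (SD, n = 4) in miR-Ctrl BDL and 3.82 ± 0.319 (SD, n = 4) in anti-miR BDL, with log2 fold changes of 4.18 (SE 0.55) and 3.70 (SE 0.29). The log2 fold changes of Neurl1b were 2.63 (SE 0.55) and 2.13 (SE 0.54). Without BDL, Neurl1a had at most 6 counts per mouse and Neurl1b at most 13. Both passed the filter only through the BDL groups, so that their calls and the size of their folds are a description. Neurl3 rose by 1.62 (SE 0.30) and 1.50 (SE 0.45) on the log2 scale, with edgeR adjusted p of 0.0031 and 0.0400.

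Among the genes of receptor maturation and cleavage, the sheddase Adam10, which makes the first cut in a ligand-bound receptor, rose in both BDL groups. It went from 21.7 ± 1.94 normalized counts (SD, n = 5) to 43.8 ± 6.54 (SD, n = 4) and 40.4 ± 6.74 (SD, n = 4), with log2 fold changes of 1.04 (SE 0.12) and 0.93 (SE 0.13) and edgeR adjusted p of 0.00038 and 0.0022. In miR-Ctrl BDL 4 of 10 cleavage genes were called higher, among them Adam10, Adam17 and Ncstn, and 1 lower, Psenen, while in anti-miR BDL Adam10 alone was called. Adam17, a related sheddase, had a log2 fold change of 0.39, and the γ-secretase subunits Ncstn and Psenen had 0.34 and -0.33. Of the 5 glycosylation genes, the fringe enzyme Lfng was called higher (log2 fold change 1.25, SE 0.38) and the fringe enzyme Rfng lower (-0.40, SE 0.13) in miR-Ctrl BDL, and 0 in anti-miR BDL. Whether these genes differed between the 2 comparisons was not tested beyond the comparison of the BDL groups, in which none was called.

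The listed coactivators and corepressors went both ways. The acetyltransferase Kat2b fell in both BDL groups, with log2 fold changes of -0.58 (SE 0.15) and -0.57 (SE 0.16), and Maml2, a coactivator that binds the RBPJ and Notch complex, was called higher in anti-miR BDL (1.07, SE 0.32), so that 1 of 8 coactivators was called in miR-Ctrl BDL and 2 in anti-miR BDL. Of 11 corepressors, the groucho-type gene Tle1 fell in both, with log2 fold changes of -1.15 (SE 0.19) and -0.83 (SE 0.18), and its relative Tle3 rose in both, with 0.87 (SE 0.21) and 0.73 (SE 0.14). Ctbp2 was called higher in miR-Ctrl BDL (1.04, SE 0.36). Among 9 genes of turnover and inhibition, Numbl, a homologue of the Notch antagonist Numb, rose in both, with log2 fold changes of 1.59 (SE 0.25) and 2.11 (SE 0.27), as did Dtx3 of the deltex family, with 0.91 (SE 0.23) and 1.16 (SE 0.19). The ligase Itch was called lower in miR-Ctrl BDL (-0.47, SE 0.13). The level of Numbl was low, at 0.754 ± 0.216, 2.25 ± 0.304 and 3.22 ± 0.753 normalized counts in no BDL, miR-Ctrl BDL and anti-miR BDL. Numbl had at most 12 counts per mouse without BDL and passed the filter only through the BDL groups. Its calls and the size of its folds are therefore a description.

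Of the 10 genes listed as other targets, 7 were tested. Sox9, a transcription factor of cholangiocytes, rose from 7.66 ± 1.38 normalized counts (SD, n = 5) to 31.4 ± 13.3 (SD, n = 4) and 22.7 ± 7.63 (SD, n = 4), with log2 fold changes of 2.05 (SE 0.27) and 1.59 (SE 0.24). Ccnd1, which encodes the cell cycle protein cyclin D1 and has many regulators besides Notch, rose by 1.71 (SE 0.33) and 1.49 (SE 0.29) on the log2 scale. Nrp1, a coreceptor of endothelial cells, fell by 0.53 (SE 0.19) and 0.80 (SE 0.22). Dtx1 was called higher in anti-miR BDL (1.64, SE 0.42), and Hes6, a hairy-family gene, lower in miR-Ctrl BDL (-1.51, SE 0.30). In miR-Ctrl BDL 2 genes of this list were called higher and 2 lower, Hes6 being counted by its place in the list. Dtx1 had at most 12 counts per mouse without BDL and passed the filter only through the BDL groups, so that its call is a description. The summed cholangiocyte markers given above were higher in all BDL mice than in all mice without BDL. The part of cholangiocytes in the Sox9 level was not tested.

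**Figure D5:**
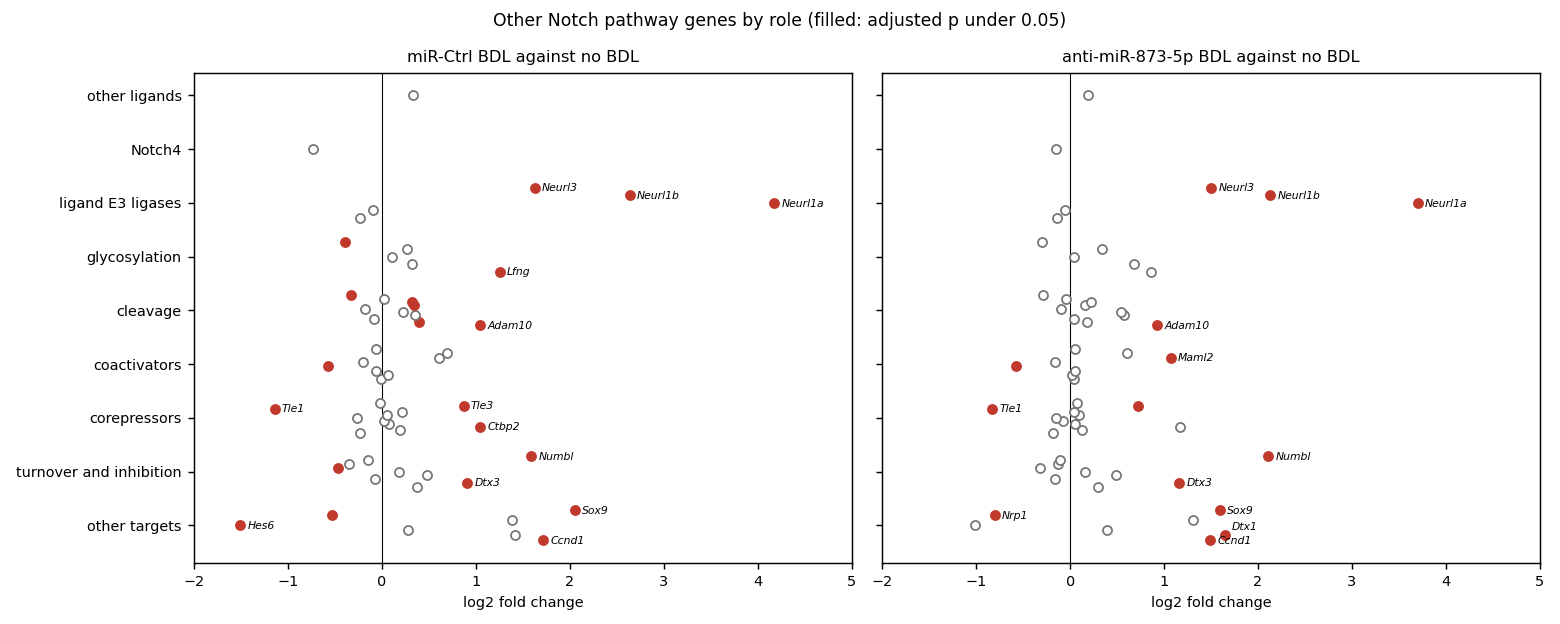
log2 fold changes of the other Notch pathway genes tested, by role, in miR-Ctrl BDL and anti-miR BDL against the same 5 mice without BDL; filled red points mark genes called by edgeR, and called genes past 0.8 in size are named. Neurl1a and Neurl1b lie farthest to the right in both panels, Sox9, Ccnd1, Numbl and Adam10 are red in both, and most other points lie near 0. Neurl1a, Neurl1b, Numbl and Dtx1 passed the filter only through the BDL groups.

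The genes whose log2 normalized counts followed each Notch gene most closely over the 13 mice are given as a description, since the mice share groups, depth and cell mixture. Over 12220 genes, Notch2 was closest to Eln, which encodes elastin (Pearson r 0.962, n = 13), and to Frzb (r 0.954), and Heyl to Gng11 (r 0.961) and the collagen receptor gene Ddr2 (r 0.931). Hey1 was closest to the matrix genes Fbln1 (r 0.959) and Mfap4 (r 0.958). Dll4 was closest to Fam219b (r 0.974) and Rufy3 (r 0.967), and Notch1 to Pisd-ps2 (r 0.907) and Nes (r 0.901), which encodes nestin. Jag1 was closest to Hmgxb4 (r 0.903) and Tuft1 (r 0.893), and Jag2, at its few counts, was close to Fam227a (r 0.899). The closest genes were less alike for Hes1, with Castor2 (r 0.825) and Abtb2 (r 0.819), for Notch3, with Serpina7 (r 0.808) and Mirt1 (r 0.776), and for Rbpj, with Bmp4 (r 0.760) and Gm10509 (r 0.750).

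The 10 genes lie at these places in GRCm38. Jag1 is at chr2:137081451-137116520 (minus strand), Jag2 at chr12:112907803-112929812 (minus) and Dll4 at chr2:119325784-119335666 (plus). Notch1 is at chr2:26457902-26503822 (minus), Notch2 at chr3:98013538-98150367 (plus) and Notch3 at chr17:32120820-32166896 (minus). Rbpj is at chr5:53555779-53657445 (plus), Hes1 at chr16:30065357-30067796 (plus), Hey1 at chr3:8663359-8667038 (minus) and Heyl at chr4:123233556-123249870 (plus). Jag1, Jag2, Hes1, Hey1 and Heyl shared none of their 50-base exon windows with other annotated genes, and Notch2 and Notch3 shared 3.76% and 4.93%.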

How the data were processed

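Per the labels and the study's methods, RNA was prepared with the TruSeq RNA v2 kit, which does not mark strand, and single reads of 50 nt were mapped to mm10 with TopHat. The authors deposited 3 tables of raw read counts per Entrez gene, 1 per comparison. The counting program and annotation are not given in the sources used here. Gene IDs were named through RefSeq (23666 matched). Each table was fitted by itself with edgeR 4.0.16 in R 4.3.3 (filterByExpr, TMM, quasi-likelihood F test on group, Benjamini-Hochberg over all genes tested, threshold 0.05), and the SE was taken from the F statistic. Levels come from the 22246 genes with identical counts in all tables that hold a mouse, scaled together over 13 mice. Correlations used log2 CPM with a prior count of 2. Exon lengths and 3′ UTRs come from GENCODE vM21. The fits were tested on simulated data. DESeq2 1.42.0, other scalings and filters, a fit of all groups, a block on mouse number and fits without single mice were tried as alternatives. The Notch genes and all gene lists were chosen with earlier results of these data known. All 10 Notch genes are named, pathway genes where they were called in both comparisons with no BDL (at most 3 of each role) or where a count is 5 or fewer, and for each Notch gene the 2 genes most correlated with it. A few genes that this rule would name are not reported here.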

Additional observations from a re-analysis of the deposited data

How the results depend on the processing

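Scaling set how many genes were called. By library size alone all genes had a median log2 fold change of 0.79 in miR-Ctrl BDL and 0.82 in anti-miR BDL against no BDL, and by library size without the 20 genes with the most counts 0.34 in both. Calls over all genes then came to 9635 (9360 higher, 275 lower) and 10194 (10063 higher, 131 lower) by library size alone, and to 5968 (5233 higher, 735 lower) and 4723 (4389 higher, 334 lower) without those 20 genes, against 2491 higher and 2175 lower (4666) and 1715 higher and 1108 lower (2823) with TMM. Of the Notch genes 6 and 7 were called by library size alone and 2 and 2 without the 20 genes (Notch2 with Notch3, and Notch2 with Notch1), and of the other pathway genes 49 and 52, and 30 in anti-miR BDL without the 20 genes. Notch2 stood at 1.42 and 1.45 by library size alone, above the median of all genes. Heyl in miR-Ctrl BDL turned to 0.82 by library size alone and to 0.36 without the 20 genes, close to those medians. Dll4 in anti-miR BDL turned to 0.24 and Rbpj to 0.81 by library size alone, and Rbpj to 0.32 without the 20 genes, which are below or close to those medians. Between the BDL groups, Notch2 turned to 0.0381 and 0.0028 under these scalings, and Notch3 to 0.0027 and Rbpj to 6.54e-05 by library size alone.

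Against no BDL, DESeq2 called 2 Notch genes in miR-Ctrl BDL (Notch2 and Dll4) and 2 in anti-miR BDL (Notch2 and Hey1). The same genes were called with all 3 groups in 1 fit. Over all genes DESeq2 called 3086 higher and 2344 lower of 15593, and 2406 and 1535 of 15515. The fit of all 3 groups called 2427 and 2068 of 12984, and 1844 and 1312. At an adjusted p of 0.1, 2 (Notch2 and Dll4) were called in miR-Ctrl BDL, with 5786 of 13072 genes in all. In anti-miR BDL, 2 (Notch2 and Hey1) were called with all genes of at least 1 count (1947 higher and 1029 lower of 18361). The same 2 were called with a mean of at least 10 counts (1795 and 1143 of 13272). With that last filter and with all 3 groups in 1 fit, Hey1 passed only through the BDL groups. Its call and the counts of 2 that include it are then a description. Without the mice left out by the authors 3 Notch genes were called in each comparison with no BDL. In both, 1 of them was Hey1, which passed the filter only through the BDL groups. Heyl in miR-Ctrl BDL then turned to 0.27, Rbpj in anti-miR BDL turned to 0.0161, and 4317 genes in all were called in anti-miR BDL. DESeq2 called 31 genes between the BDL groups. The labels do not say whether the mouse numbers pair the mice. Of 12 pairs of mice with the same number, 2 had deviations from their group means that correlated above 0.1 (range -0.407 to 0.556). Both were between the BDL groups, number 1 (0.556) and number 4 (0.203). Numbers 2 and 3 there (-0.407 and -0.353) each include a mouse left out by the authors, so that the check cannot settle whether mice were paired. With the number as a replicate block 0 Notch genes were called in anti-miR BDL against no BDL (Notch2 0.53, edgeR adjusted p = 0.145), Rbpj in miR-Ctrl BDL turned to -0.0023, and between the BDL groups Notch3 turned to 0.72 and Rbpj to 0.0486, uncalled. The cause of these differences was not tested.

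Leaving out 1 mouse at a time, 1 to 3 Notch genes were called in miR-Ctrl BDL, 0 to 3 in anti-miR BDL and 0 between the BDL groups, with 14 to 24, 8 to 16 and 0 other pathway genes and 3775 to 5710, 1261 to 4317 and 0 to 1 genes in all. The fewest in all in anti-miR BDL came without its mouse 3 and the most without its mouse 2. Changes of sign were limited to uncalled genes: in miR-Ctrl BDL, Jag1 (-0.0421 to 0.51), Rbpj (-0.0594 to 0.13), Hes1 (-0.0397 to 0.37) and Heyl (-0.35 to 0.27), in anti-miR BDL, Notch3 (-0.0596 to 0.38) and Rbpj (-0.11 to 0.0161), and between the BDL groups, Notch1 (-0.0512 to 0.34), Notch2 (-0.0798 to 0.0805), Notch3 (-0.27 to 0.41) and Rbpj (-0.18 to 0.0838). With DESeq2's size factors in edgeR, every count of calls was within 1.5 times the value given and no Notch gene changed sign. The few counts of Hey1, Jag2, Notch3 and Dll4, down to 0 per mouse, limit what can be said of them.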
